A study of Mus musculus with 1 sample.

Results

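The matrix metalloproteinases (MMP), the ADAMTS proteases and the ADAMTS-like proteins were described in RNA sequencing of 1 mouse fibroblast culture. All genes of the deposited table whose symbols carry the family names Mmp, Adamts or Adamtsl followed by a number (and a letter for a and b copies) were taken, which gave 47 of 23386 genes. These were 23 MMP genes, 19 ADAMTS genes and 5 ADAMTS-like genes, each with 1 row in the table. The cells were grown and expanded from normal mouse pancreas, and the strain background is given as mixed, C57BL/6 with BALB/c. The label gives a Cre-negative genotype (written tf1acre-) and floxed alleles of a gene written Tgfrb2, and calls the cells normal fibroblasts. By its title the series set such cells against cancer-associated fibroblasts. The present data are 1 library with the label normal fibroblast, so no condition was compared. Its value column is named with a CAF code, in conflict with that label, and which of the 2 kinds of culture it holds is not settled. The whole reads recovered from the table summed to 52494688.

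MMPs are zinc proteases that are made as inactive proenzymes and cut collagens, gelatin and many other proteins of the matrix and cell surface. Most are secreted, and the membrane types stay anchored to the cell. ADAMTS proteases are secreted enzymes with thrombospondin repeats, and groups of them trim the ends of procollagens or cut the large proteoglycans aggrecan and versican. ADAMTS-like proteins share the repeats but lack the protease domain. Fibroblasts are a main source of these enzymes in connective tissue, and tissue inhibitors of metalloproteinases (TIMPs) hold them in check.

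Promoter stretches are shown first because the motifs found there differed between most MMP genes of 1 chromosomal cluster and the other members. Promoters from RefSeq (GRCm38.p6, 250 bases before to 50 after the annotated start) were matched by symbol for 32 of the 47 members, and 3 of these had 2 promoters. No promoter was used for Adamts4, Adamts5, Adamts6, Adamts7, Adamts8, Adamts10, Adamts15, Adamts16, Adamts19, Adamtsl1, Mmp2, Mmp9, Mmp16, Mmp17 and Mmp19. The 120 bases just before the start are printed 5′ to 3′ on the strand of the gene. Capitals mark exact matches to 4 searched motifs. The AP-1 motif TGAGTCA or TGACTCA, the GC box GGGCGG or CCGCCC and the ETS motif AGGAAG or CTTCCT were searched on both strands, and the TATA motif TATAAA on the strand of the gene. None of these motifs contains another. The following 4 belong to members with high levels, from chr14:54431478-54431597 (plus strand), chr16:85803114-85803233 (minus strand), chr11:50601965-50602084 (plus strand) and chr10:75932503-75932622 (minus strand).
Mmp14: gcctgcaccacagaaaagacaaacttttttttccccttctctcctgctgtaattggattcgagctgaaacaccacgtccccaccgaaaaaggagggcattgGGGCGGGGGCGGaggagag
Adamts1: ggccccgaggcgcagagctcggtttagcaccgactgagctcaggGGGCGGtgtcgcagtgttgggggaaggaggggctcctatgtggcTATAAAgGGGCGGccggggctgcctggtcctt
Adamts2: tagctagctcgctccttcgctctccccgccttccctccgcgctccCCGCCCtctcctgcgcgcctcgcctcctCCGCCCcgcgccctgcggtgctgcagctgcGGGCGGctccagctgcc
Mmp11: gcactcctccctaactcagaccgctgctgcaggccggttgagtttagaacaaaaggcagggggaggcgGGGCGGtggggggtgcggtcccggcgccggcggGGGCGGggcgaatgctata

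The next 6 come from the MMP cluster on chromosome 9, whose levels lay below the median of protein-coding genes with at least 10 reads. They lie at chr9:7445702-7445821 (plus), chr9:7272394-7272513 (plus), chr9:7502222-7502341 (plus), chr9:7691970-7692089 (plus), chr9:7464021-7464140 (plus) and chr9:7388027-7388146 (minus).
Mmp3: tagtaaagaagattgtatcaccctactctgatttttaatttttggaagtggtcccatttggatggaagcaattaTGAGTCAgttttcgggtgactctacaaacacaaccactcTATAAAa
Mmp13: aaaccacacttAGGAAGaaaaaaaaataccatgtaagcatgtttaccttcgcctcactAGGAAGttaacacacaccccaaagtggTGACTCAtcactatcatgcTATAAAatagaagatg
Mmp10: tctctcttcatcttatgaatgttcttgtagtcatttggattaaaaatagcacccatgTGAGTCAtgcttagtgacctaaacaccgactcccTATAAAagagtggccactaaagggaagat
Mmp7: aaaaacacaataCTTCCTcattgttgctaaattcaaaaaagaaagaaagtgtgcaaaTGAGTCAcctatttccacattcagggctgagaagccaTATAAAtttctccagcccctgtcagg
Mmp1a: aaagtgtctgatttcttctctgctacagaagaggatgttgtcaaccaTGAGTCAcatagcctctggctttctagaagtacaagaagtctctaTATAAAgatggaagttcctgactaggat
Mmp1b: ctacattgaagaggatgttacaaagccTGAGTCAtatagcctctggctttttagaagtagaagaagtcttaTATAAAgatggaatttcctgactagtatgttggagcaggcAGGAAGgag

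The AP-1 motif was found in the 300-base windows of 7 of the 32 members (21.9%), against 5.49% of 16269 protein-coding genes with a promoter in the same table. All 7 lie in the chromosome 9 cluster, and they are the 6 shown above and Mmp12. The other genes of the cluster, Mmp8, Mmp20 and Mmp27, did not hold the motif. In the 6 shown it starts at -46 in Mmp3, -35 in Mmp13, -63 in Mmp10, -63 in Mmp7, -73 in Mmp1a and -93 in Mmp1b, counted from the annotated start. The TATA motif was found in 11 of the 32 members (34.4%) and in 9.56% of the protein-coding genes. It lies downstream of the AP-1 motif in each of the 6 stretches shown, and Adamts1 also holds it. The GC box was found in 19 members (59.4%), against 51.8% of the protein-coding genes, and no member held both a GC box and the AP-1 motif. The ETS motif was found in 12 members (37.5%), against 37.3% of the protein-coding genes. These are matches of letters in a window and do not show that a factor binds.

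Levels are given next for members with the AP-1 motif and members with a GC box. The 7 members with the AP-1 motif had between 0 and 4.44 reads per kilobase of exon per 1000000 reads in the table (RPKM), with a median of 0.830 RPKM. The 19 members with a GC box had between 0.00477 and 106 RPKM, with a median of 0.639 RPKM. The medians were thus close, and no GC box member with a low level was among the stretches shown. Of the 19 GC box members 6 (31.6%), and of the 7 AP-1 members 0, lay above 4.93 RPKM, the median of all protein-coding genes with at least 10 reads; of all protein-coding genes with a length, 34.0% lay above it. Of the 11 members above it, 5 had no promoter in the table and entered neither set. No test was made, since these are genes of 1 library and neighbours in a cluster are not independent.

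As a whole the members were widely detected and mostly low, with a few at high levels. At least 10 reads were counted for 38 of the 47 (80.9%), against 68.0% of 20415 protein-coding genes with a length. A level above 4.93 RPKM was reached by 11 members (23.4%), against 34.0% of the protein-coding genes. The median over all 47 members was 0.830 RPKM, against 1.21 RPKM over all protein-coding genes. Together the members took 0.251% of the reads. Mmp2 and Mmp14 held 57.8% of the summed RPKM of all members, and with Adamts5 and Adamts1 the share was 75.3%. Each interval in parentheses after a level is an exact 95% Poisson interval. It covers counting error for reads taken as independent, and the spread between cultures is unknown.

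**Figure D1:**
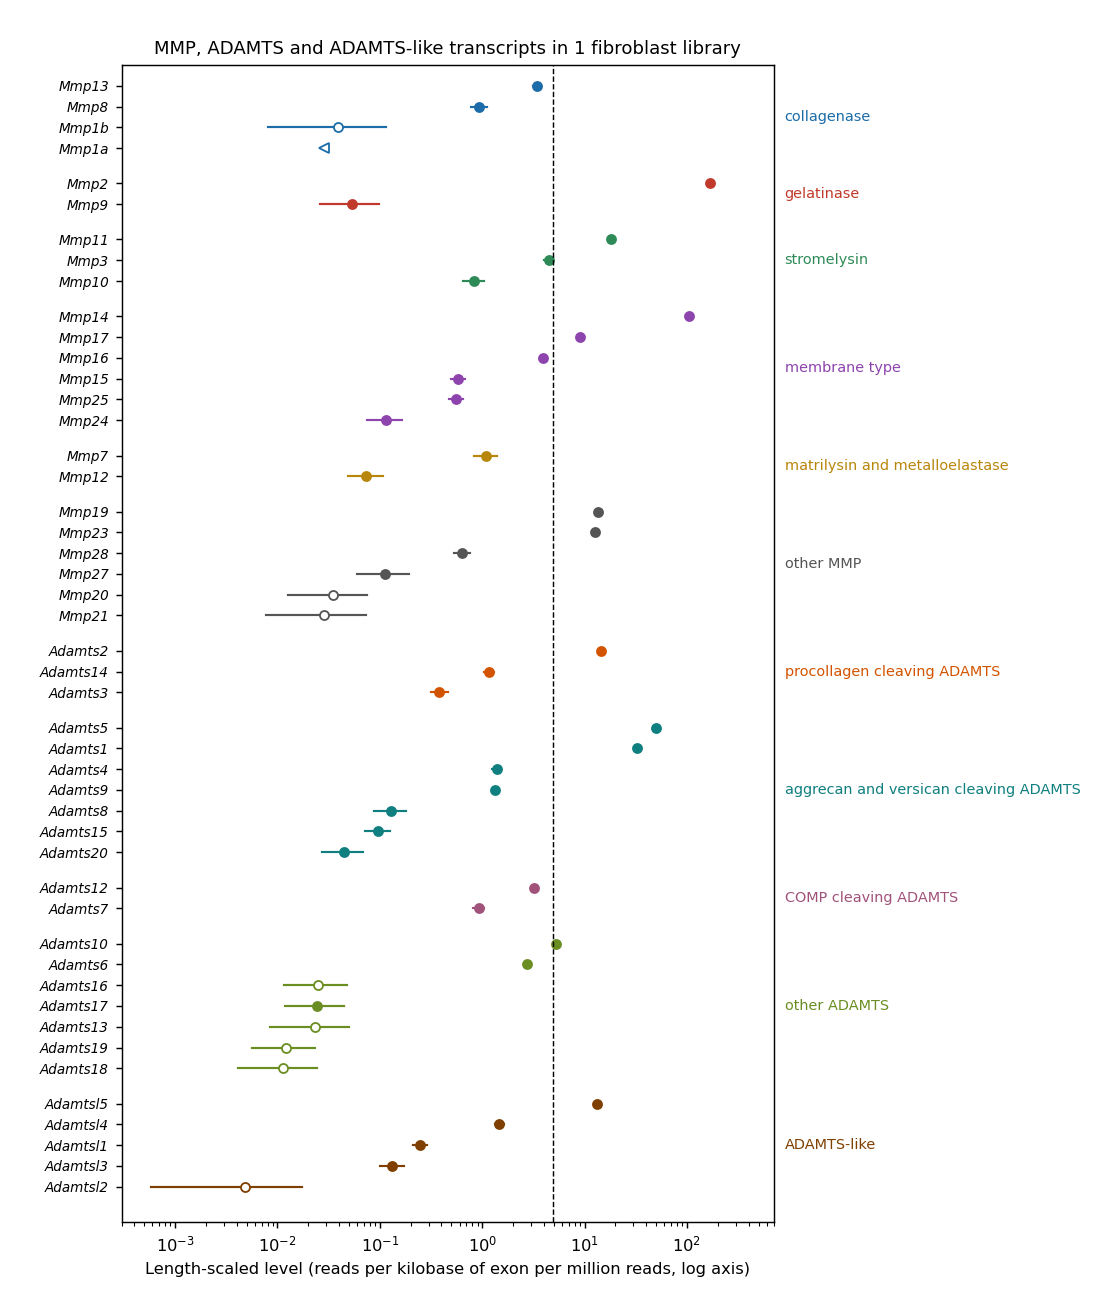
Length-scaled level of each of the 47 members on a log axis, grouped by class, with bars for the exact 95% Poisson interval; open symbols have under 10 reads, the open triangle is Mmp1a, drawn at the level of 3 reads, and the dashed line is the median of detected protein-coding genes, 4.93 RPKM. In most classes 1 or 2 genes stand far to the right of the others, led by Mmp2 and Mmp14.

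Most listed fibroblast markers were high, but so were markers listed for some other cell types, so the markers do not settle the cell type. Of 11 fibroblast markers 9 lay above the median of detected genes, led by Vim at 603 RPKM, and Lum (2.16 RPKM) and Fap (0.0976 RPKM) did not. Of all protein-coding genes, 34.0% lay above this median. All 4 myofibroblast markers and all 6 mesothelial markers lay above it too, as did 5 of 7 acinar markers. The highest mesothelial marker was Bnc1 at 102 RPKM, and the highest acinar marker was Ctrb1 at 58.5 RPKM. Of 6 endothelial markers Kdr lay above it, at 20.1 RPKM, and the other 5 had between 0.0398 and 0.660 RPKM. None of the 5 mast cell markers had at least 10 reads, against 68.0% of all protein-coding genes. In a bulk culture, fewer cells that make a transcript and less of it per cell cannot be told apart. Whether the sources of the mesothelial and acinar transcripts contribute to any protease level was not tested.

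Collagenases open the triple helix of fibrillar collagens, and as a class they were scarce. Mmp13, the collagenase that rodent fibroblasts and bone cells use most, had 483 reads, or 3.44 RPKM (3.14 to 3.76). Mmp8, the collagenase known from neutrophil granules, had 119 reads, or 0.935 RPKM (0.774 to 1.12). Mmp13 was thus 3.68 times as high as Mmp8 (3.01 to 4.54, exact conditional binomial interval). The rodent genes Mmp1a and Mmp1b, the counterparts of the human interstitial collagenase gene, had 0 and 3 reads; the count of 0 has a floor of 3 reads, which is 0.0571 CPM (reads per 1000000 reads), and the upper end of its 2-sided Poisson interval is 0.0703 CPM. Mmp1a and Mmp1b are close copies of each other, so that reads shared by both are uncertain. The 4 genes made up 0.938% of the members' summed RPKM. Neutrophil markers were near 0: of 8 measured, 2 had at least 10 reads, against 68.0% of all protein-coding genes. Ngp had 0 reads, and the list summed to 0.794 RPKM.

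The gelatinases, which cut denatured collagen and basement membrane collagen, were split between an abundant and a scarce gene. Mmp2 (gelatinase A; GRCm38 chromosome 8, 92827291 to 92853420), the form made constitutively by mesenchymal cells, had 29487 reads, or 562 CPM (555 to 568). On the length scale it had 167 RPKM (165 to 169), at rank 116 of the protein-coding genes. Mmp9 (gelatinase B; chromosome 2), the form typical of leukocytes and of induced cells, had 10 reads, or 0.0538 RPKM (0.0258 to 0.0990). Mmp2 was 3096 times as high as Mmp9 per length (1683 to 6456), a ratio limited by the 10 reads of Mmp9.

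Stromelysins cut proteoglycans and glycoproteins and activate other MMPs, apart from Mmp11 (stromelysin-3), which is activated inside the cell by furin and is known as a gene of tumour stroma. Mmp11 led the class with 2617 reads, or 17.9 RPKM (17.3 to 18.6). Its exons share 155 bases with the opposite-strand gene Chchd10, which had only 56 reads. Mmp3 had 420 reads, or 4.44 RPKM (4.03 to 4.89), and Mmp10 had 75 reads, or 0.830 RPKM (0.653 to 1.04). Mmp11 was 4.04 times as high as Mmp3 (3.64 to 4.49), and Mmp3 was 5.35 times as high as Mmp10 (4.18 to 6.94).

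All 6 membrane-type MMPs were detected, against 68.0% of all protein-coding genes, and Mmp14 stood far above the others. Mmp14 (chromosome 14, 54431612 to 54445364), a transmembrane collagenase that activates the Mmp2 proenzyme at the cell surface, had 33067 reads, or 630 CPM (623 to 637), the highest read count of any member. On the length scale it had 106 RPKM (105 to 107), at rank 205. Among the others, Mmp17, held by a lipid anchor, had 8.99 RPKM (8.68 to 9.31), and Mmp16, a transmembrane form, had 3.90 RPKM (3.72 to 4.08). Mmp14 was 11.8 times as high as Mmp17 (11.3 to 12.2), and 21.0 times with the longest transcript of each or 26.2 times with the transcript that the table lists. Mmp15 had 0.586 RPKM and Mmp25, a lipid-anchored form of leukocytes, 0.560 RPKM. Mmp15 was 1.05 times as high as Mmp25 (0.835 to 1.31), a ratio within counting error of 1. Mmp24, a form known from the nervous system, had 28 reads, and 13.6% of its exon length overlaps the opposite-strand gene BC029722, which had 1565 reads.

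The order of Mmp14 and Mmp2 depended on the length used. With the union of all annotated exons (5.96 kb for Mmp14 and 3.37 kb for Mmp2), Mmp14 was 0.634 times as high as Mmp2 (0.624 to 0.644). With the longest annotated transcript it was 1.07 times as high, and with the transcript that the table lists it was 1.33 times as high. Both genes stayed among the leading protein-coding genes in each case: with the longest transcript Mmp14 was at rank 128 and Mmp2 at rank 142. Among the other leading members, Mmp23 had 12.5 RPKM by the union and 20.4 RPKM by the longest transcript, and Adamts10 had 5.28 and 10.6 RPKM. Adamts5 had 49.6 RPKM under both lengths.

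**Figure D2:**
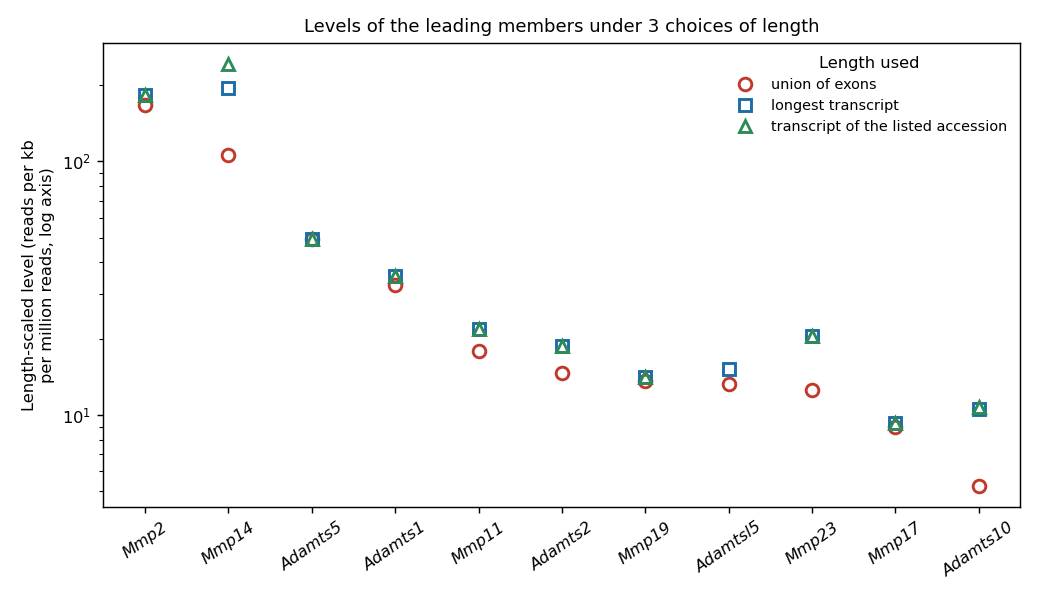
Length-scaled level, on a log axis, of the 11 members above the median of detected genes, with the length taken as the union of exons, the longest transcript or the transcript of the accession in the table (not matched for Adamtsl5). Mmp14 lies below Mmp2 with the union of exons, at 106 against 167 RPKM, and above it with the other lengths.

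The smaller MMP classes held a few stromal genes and several near the floor. Mmp19, which cuts basement membrane proteins, had 2523 reads, or 13.6 RPKM (13.1 to 14.1), and 22.3% of its exon length overlaps the opposite-strand gene Tmem198b, which had 2702 reads. Since no source used here states whether the counting used strand, reads of these overlapping genes cannot be told apart with certainty. Mmp23, whose protein has an unusual membrane-bound proform, had 1538 reads, or 12.5 RPKM (11.9 to 13.2). Mmp28 (epilysin) had 0.639 RPKM (0.534 to 0.759). Mmp7 (matrilysin), an enzyme of glandular epithelia, had 61 reads, or 1.09 RPKM (0.832 to 1.40). Mmp12 (macrophage metalloelastase) had 28 reads, or 0.0737 RPKM (0.0490 to 0.107). Mmp27 had 13 reads, Mmp20 (the enamel protease enamelysin) 6 and Mmp21 4. Beside these, the 7 ductal epithelial markers summed to 19.1 RPKM, with 2 of them above the median of detected genes, against 34.0% of all protein-coding genes. The 8 macrophage markers summed to 16.2 RPKM, and only Lyz2, at 6.99 RPKM, lay above the median of detected genes. The rest ranged from 0.0270 RPKM for Ptprc to 4.09 RPKM for Cd14. The part of either cell type in the levels of Mmp7 and Mmp12 was not tested.

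The MMP genes of the chromosome 9 cluster had a lower median level than those elsewhere, with overlapping ranges. The 10 genes of the cluster (7272514 to 7699585, GRCm38) lie within 427.1 kb, and no other protein-coding gene was annotated between any 2 neighbours. Of these 7 had at least 10 reads, a share near the 68.0% of all protein-coding genes, and the highest was Mmp3 at 4.44 RPKM. The median of the 10 was 0.471 RPKM, against 3.90 RPKM for the 13 MMP genes elsewhere, of which 12 had at least 10 reads. The cluster gave 3.21% of the summed RPKM of the MMP genes, from collagenases, stromelysins and the matrilysin alike. Within the cluster, neighbours could differ widely. Mmp3 had 420 reads and its neighbour Mmp1a, 8.20 kb away, had 0. Exons of Mmp12 and Mmp1b overlap on opposite strands by 157 bases, and these genes had 28 and 3 reads.

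**Figure D3:**
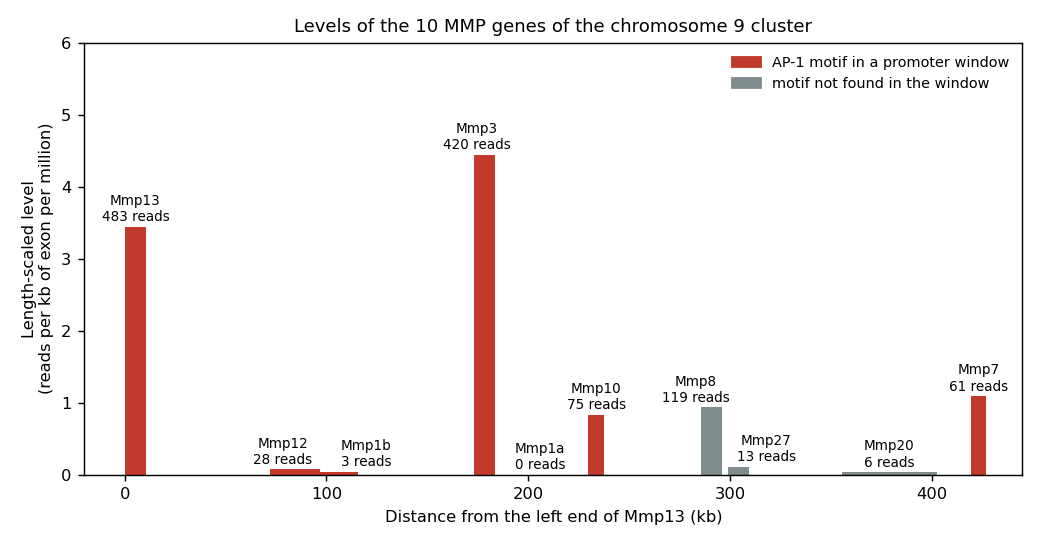
Length-scaled level of the 10 MMP genes of the chromosome 9 cluster against distance from the left end of Mmp13 in kb; bar width is gene length (at least 6 kb), and red bars have the AP-1 motif in a promoter window. Mmp3 and Mmp13 are the highest, and Mmp1a, Mmp1b, Mmp12, Mmp20 and Mmp27 lie near 0.

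Procollagen-cleaving ADAMTS proteases remove the amino-terminal propeptide of fibrillar procollagens, and 1 of the 3 carried nearly all the reads. Adamts2 (chromosome 11, 50602084 to 50807573 in GRCm38), the main procollagen amino-proteinase of skin, had 7158 reads, or 14.6 RPKM (14.3 to 14.9). Adamts14 had 315 reads, or 1.15 RPKM (1.03 to 1.29), and Adamts3, which also processes the lymphatic growth factor VEGF-C, had 109 reads, or 0.382 RPKM (0.314 to 0.461). Adamts2 was 12.6 times as high as Adamts14 (11.3 to 14.2) and 38.2 times as high as Adamts3 (31.6 to 46.6).

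Of the proteases that cut aggrecan and versican, Adamts5 and Adamts1 dominated. Adamts5 (chromosome 16, 85856173 to 85901828), the main aggrecanase of mouse cartilage, had 28071 reads, or 49.6 RPKM (49.0 to 50.1), at rank 647. Adamts1 (chromosome 16, 85793827 to 85803113) had 9100 reads, or 32.7 RPKM (32.0 to 33.4), and Adamts5 was 1.52 times as high (1.48 to 1.55). Adamts4, the other well-known aggrecanase, had 350 reads, or 1.39 RPKM (1.24 to 1.54), so that Adamts5 was 35.8 times as high (32.2 to 39.8). Adamts9 had 1.33 RPKM (1.25 to 1.41), and Adamts4 was 1.04 times as high (0.923 to 1.18), although with the longest transcript of each it was 0.610 times as high. The remaining Adamts8, Adamts15 and Adamts20 had 31, 52 and 21 reads. All 7 genes of the class had at least 10 reads, against 68.0% of all protein-coding genes. Together the 7 genes held 75.0% of the summed RPKM of the ADAMTS genes.

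Among the ADAMTS genes, 2 pairs are direct neighbours in the genome. Adamts1 and Adamts5, the 2 highest ADAMTS genes, lie 53.1 kb apart on the same strand of chromosome 16. Adamts15 and Adamts8 lie 20.1 kb apart on opposite strands of chromosome 9, and both were low, at 0.0956 and 0.128 RPKM. Adamts8 was 1.34 times as high as Adamts15 (0.830 to 2.13), within counting error of 1. No other protein-coding gene was annotated between the genes of either pair.

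Among the other ADAMTS genes, Adamts10 had the highest level. Adamts10, whose loss causes a connective tissue disorder of fibrillin microfibrils in humans, had 2287 reads, or 5.28 RPKM (5.06 to 5.50). The related Adamts6 had 1119 reads, or 2.73 RPKM (2.58 to 2.90), and Adamts10 was 1.93 times as high (1.80 to 2.08), or 3.81 times with the longest transcript of each. Adamts12 and Adamts7, which cut cartilage oligomeric matrix protein (COMP), had 3.21 RPKM (3.06 to 3.36) and 0.922 RPKM (0.821 to 1.03). Adamts13, the protease of von Willebrand factor known from liver stellate cells, had 6 reads. Adamts17 had 10 reads, Adamts16 and Adamts19 had 9 each, and Adamts18 had 6, so that no order among these 5 could be read at this depth.

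The ADAMTS-like genes were led by a single member. Adamtsl5, whose protein binds fibrillin, had 3276 reads, or 13.2 RPKM (12.8 to 13.7), and made up 87.7% of the class. Adamtsl4, which binds fibrillin microfibrils, had 325 reads, or 1.47 RPKM (1.32 to 1.64). Adamtsl1 had 167 reads and Adamtsl3 had 54. Adamtsl2, a regulator of microfibrils whose human gene underlies geleophysic dysplasia, had 2 reads.

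Inhibitors of these proteases were more abundant than the proteases. The 42 MMP and ADAMTS genes summed to 342 and 114 RPKM, against 2234 RPKM for the 4 TIMP genes, which is 4.90 times the protease sum. Timp3, which binds to the matrix and is the main inhibitor of ADAMTS aggrecanases, had 1368 RPKM and set most of this. Without it the ratio was 1.90. Timp2, which inhibits Mmp2 and also helps Mmp14 to activate it, had 411 RPKM, 2.47 times as high as Mmp2 (2.44 to 2.50) and 3.89 times as high as Mmp14 (3.84 to 3.94; 1.78 with the transcript the table lists). Timp1 had 455 RPKM, and the membrane-anchored inhibitor gene Reck had 8.01 RPKM. Timp4 and A2m had 8 and 7 reads.

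Most activators were also present. Of 8 activator genes, 7 were detected and 6 exceeded the median of detected genes, against 68.0% and 34.0% of all protein-coding genes. The list was led by the urokinase gene Plau (55.0 RPKM), its receptor gene Plaur (35.4 RPKM) and the proprotein convertase gene Pcsk6 (26.8 RPKM). Furin, the convertase that activates Mmp14 and Mmp11 inside the cell, had 11.9 RPKM, and Plg, the plasminogen gene, had 2 reads.

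Genes of the listed substrates ranged from very abundant to nearly silent. All 9 listed fibrillar procollagen genes were detected and 5 exceeded the median of detected genes, against 68.0% and 34.0% of all protein-coding genes. Col1a1 (424 RPKM), Col1a2 (243 RPKM) and Col3a1 (206 RPKM) were the highest. Vcan, the versican gene, had 45.4 RPKM, 0.915 times the level of Adamts5 (0.901 to 0.930; above it, at 1.07, with the longest transcript). The cartilage and brain proteoglycan genes Acan, Bcan and Ncan had 23, 13 and 14 reads, and Comp, the COMP gene, had 12. Among the partners in procollagen processing, the enhancer gene Pcolce had 88.5 RPKM and the carboxyl-terminal proteinase genes Bmp1 and Tll1 had 21.7 and 11.1 RPKM, whereas Tll2 and Mep1b had 8 reads and 1 read. Bmp1 was 1.49 times as high as Adamts2 (1.44 to 1.53), or 2.36 times with the transcripts that the table lists. Of the fibrillin and papilin partners, Fbn1 had 100.4 RPKM, and Thsd4, Fbn2 and Papln had 168, 46 and 13 reads.

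**Figure D4:**
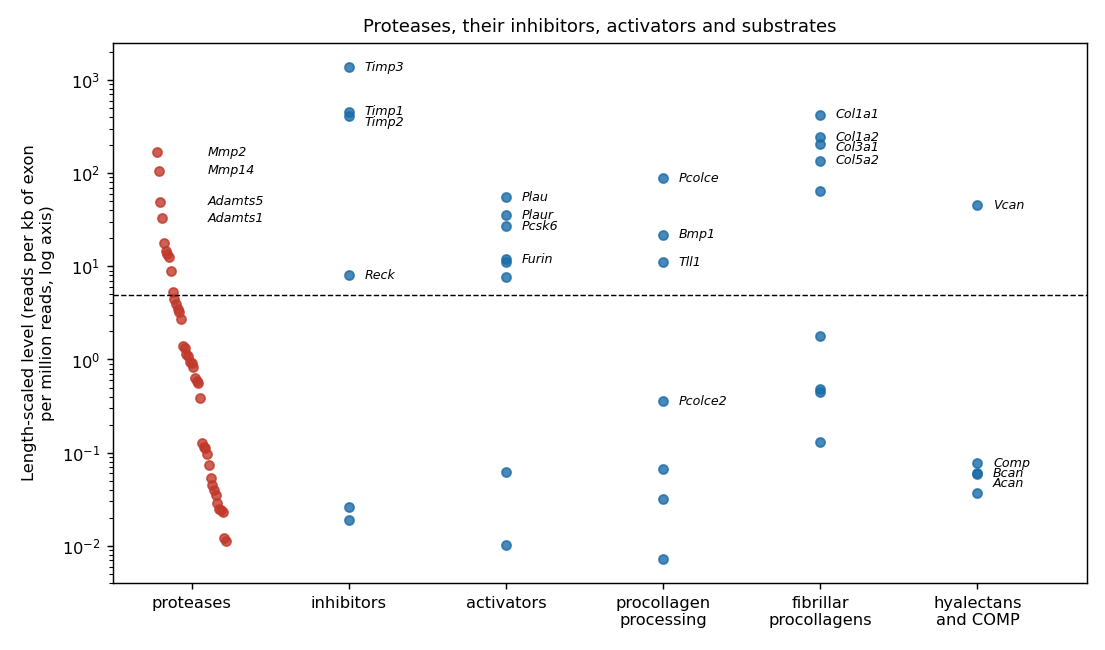
Length-scaled level, on a log axis, of the MMP and ADAMTS proteases (red) and of the listed inhibitors, activators, procollagen processing partners and substrates (blue); names mark the highest genes of each list, and the dashed line is the median of detected protein-coding genes. Timp3, Timp1 and Timp2 lie above every protease, and Vcan is the only hyalectan or COMP gene above the line. Mmp1a, with 0 reads, is not drawn.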

How the data were processed

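Per the labels' protocols, TRIzol RNA of 1 culture was made into a SOLiD library. DESeq and the build mm10 appear, with no role stated, in the submitters' processing notes. The aligner, counting tool, strand setting and annotation are not given in the sources. The deposited signal behaved as read counts divided by 1 size factor of 0.850: all 20976 values above 0 were whole multiples of 1.18 within 0.006 reads. On simulated libraries of 24214 rows the search returned 100% of the reads at each of 3 size factors. These libraries were made as counts divided by 1 size factor, so they check the search and not the form of the deposited signal.

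The design had assumed counts, so the recovered reads took their place. No count test was run, because there was 1 library. Rows differing only by a copy suffix (1073) or repeated (60) were summed. Levels are reads per 1000000 reads (CPM), and per 1000 bases of exon in GENCODE M21 (RPKM), found for 99.3% of 20559 protein-coding genes. A gene counted as detected at 10 reads, and 3 reads were taken as the limit that a count of 0 leaves. The intervals treat reads as independent and cover counting error only. Reads are not independent molecules, so the intervals may be too narrow even for that error. All members are named, with the 3 highest genes and those under 10 reads of each list described in the report. Some further list genes were named after their values were seen. Members, classes and lists were chosen with earlier results of these data known. Of 63 marker genes, 62 had a row. A planned match of protein motifs was not run, and a few items are not reported here. Software was matplotlib 3.10.9, scipy 1.17.1, pandas 2.3.3 and numpy 2.4.6 under Python 3.11.15.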

Additional observations from a re-analysis of the deposited data

How the results depend on the processing

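There was 1 library and hence no replicate to leave out. No paired analysis was possible because there was a single sample. The number of members detected was 46 at a limit of 1 read (97.9%, against 91.2% of protein-coding genes), 31 at 50 reads (66.0%, against 58.0%), and 38 without summing of rows, and motif counts moved by at most 2 members when only upstream bases were searched. The median log2 level of the members, 1.80 with a pseudocount of 0.5, was 2.72 with only genes of at least 10 reads, 2.99 with a pseudocount of 5 and 2.16 with a total without the 100 most abundant genes. It stayed below that of all protein-coding genes in each (4.46, 3.31 and 2.83). The totals raise every level by the same factor, 1.09 for protein-coding reads and 1.34 without the 100 most abundant genes.

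With the longest transcript as length, the share of the summed RPKM was 30.0% for gelatinases, 34.8% for membrane types, 4.45% for stromelysins, 0.726% for collagenases, 14.7% for aggrecan and versican cleaving ADAMTS genes and 2.84% for ADAMTS-like genes. With the union of exons, the leading gene of 1 class at a time was also left out, and the other classes were kept whole. The share of that class was then 0.0177% for gelatinases, 3.87% for membrane types, 1.16% for stromelysins and 0.208% for collagenases. It was 0.337% for procollagen cleaving, 8.47% for aggrecan and versican cleaving and 0.407% for ADAMTS-like genes.

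The ratio of Mmp14 to Mmp2 turned round: it was 0.634 with the union of exons, 1.07 with the longest transcript, 1.12 with reads as counted and 1.33 with the transcript of the listed accession, a setting chosen after seeing the data. The union of exons of Mmp14 is longer than either transcript, which sets this. The ratios that follow are with the longest transcript, with reads as counted and with the listed accession, in that order. Adamts5 to Adamts1 was 1.40, 3.08 and 1.40, and Adamts2 to Adamts14 was 16.2, 22.7 and 16.2. Timp2 to Mmp14 was 2.22, 2.54 and 1.78, and Timp2 to Mmp2 was 2.37, 2.85 and 2.37. The ratio of the TIMP genes to the MMP and ADAMTS genes was 5.50, 5.40 and 5.06. Of the 38 members detected, 8 were over 1.5 times as high with the longest transcript. Depth limits the order of members with 10 reads or fewer.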

Other observations

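Membrane-anchored ADAM sheddases are relatives of the ADAMTS enzymes that release growth factors and receptors from the cell surface. All 8 listed genes were detected, against 68.0% of all protein-coding genes. Of these 8, 5 lay above the median of detected genes, against 34.0% of all protein-coding genes. Adam9 had 149 RPKM, Adam10 55.2 RPKM, Adam19 44.9 RPKM, Adam12 16.0 RPKM and Adam17 9.68 RPKM. Adam15 had 3.93 RPKM, and Adam8 and Adam33 had 133 and 136 reads. The 8 genes summed to 280.0 RPKM, beside 114 RPKM for the 19 ADAMTS genes and 342 RPKM for the 23 MMP genes.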
